A study of Mus musculus with 12 samples.

Results

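The genes described here are the A-type plexins (Plxna1, Plxna2, Plxna3 and Plxna4), the neuropilins Nrp1 and Nrp2, and the class 3 semaphorins Sema3a, Sema3c, Sema3d and Sema3e. They are 10 of the 38481 genes with a listed transcript, and all 10 passed the filter on low counts that left 13247 genes. The members were taken by name, with earlier results of these data known. Plxna4 was chosen by its measured rise with rapamycin in these same libraries. Its rapamycin values, and its siRNA values in those libraries, are therefore given as a description without a test. RNA came from C2C12, a line of mouse myoblasts able to fuse into myotubes, which was kept in medium with fetal bovine serum. The groups were Crebl2 siRNA with rapamycin, Crebl2 siRNA with ethanol, Luc siRNA with rapamycin and Luc siRNA with ethanol, with 3 libraries each. Crebl2 encodes a bZIP protein related to CREB, and the Luc siRNA is directed against Renilla luciferase, so every library came from cells that carried an siRNA. The siRNAs acted for 3 days and were followed by 12 hours of 20 nM rapamycin, an inhibitor of the kinase complex mTORC1, or of ethanol as its control. A single Crebl2 siRNA was used, so loss of Crebl2 and other effects of that siRNA cannot be told apart. Nothing in the labels says that the 3 libraries of a group came from separate cultures, and p-values therefore reflect library-to-library spread that could be purely technical.

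Class 3 semaphorins are secreted proteins that guide growing axons and migrating cells. Most of them bind a neuropilin, which has a short intracellular tail and passes the signal through an A-type plexin held in the same receptor complex. The plexin's intracellular part acts on small GTPases of the Rap and Ras families and loosens actin and adhesion to the matrix. Sema3e is the exception among the ligands described here, since it can bind Plxnd1 without a neuropilin. In skeletal muscle, Sema3a is known as a factor that satellite cells secrete after injury.

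Library totals ran from 33404087 to 42891015 counts. Crebl2 itself measured 8.97 to 10.7 CPM (edgeR's read rate relative to library size, after TMM scaling) in the 3 libraries with Crebl2 siRNA and rapamycin, against 36.3 to 40.0 CPM with Luc siRNA and rapamycin. In ethanol it measured 4.87 to 7.41 CPM with Crebl2 siRNA, against 23.8 to 26.2 CPM with Luc siRNA. All 5 myoblast markers passed the count filter, with a summed level of 2192 to 2923 CPM over the 12 libraries. The 5 markers of differentiating muscle, of which 4 passed the filter, summed to 34.0 to 44.5 CPM with Crebl2 siRNA and rapamycin and 54.4 to 67.3 CPM with Crebl2 siRNA and ethanol. They summed to 165.5 to 197 CPM with Luc siRNA and rapamycin and 426.5 to 557 CPM with Luc siRNA and ethanol, so this marker level moved with both siRNA and rapamycin, and its part in the changes below was not tested. Of the 5 neuron markers, Rbfox3, Syt1, Snap25 and Elavl4 were at 0 counts in every library, although 1.8% to 59.9% of their exonic bases could be counted, and Nefl alone made up the summed 136 to 304 CPM with Crebl2 siRNA and 20.6 to 57.9 CPM with Luc siRNA. Endothelial markers summed to at most 0.270 CPM, Schwann cell and glial markers to at most 0.745 CPM and blood cell markers to at most 0.623 CPM, and Tek and Ptprc were at 0 with 1.0% and 8.4% of their exonic bases countable. In such bulk RNA, fewer cells of a type and less RNA per cell cannot be told apart.

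The deposited counts were made per transcript, and reads that several listed transcripts share are missing from them. A countable base is an exonic base that belongs to 1 listed transcript on its strand. Of the 10 members, 6 had a countable share above 90%. Plxna1 (GRCm38, chromosome 6, 89316314 to 89362620, minus strand) was counted on 35.7% of its exonic bases, all outside the coding sequence, and Plxna4 (chromosome 6, 32144268 to 32588192, minus strand) on 100%. Plxna2 (chromosome 1, 194618218 to 194816869, plus strand) and Plxna3 (chromosome X, 74329066 to 74344689, plus strand) were also counted on 100%. Nrp1 (chromosome 8, 128358604 to 128503363, plus strand) was counted on 99.0%. Nrp2 (chromosome 1, 62703285 to 62818695, plus strand) was counted on 22.5%, and every one of its reads lay on the noncoding end of 1 of its 6 listed transcripts, Nrp2-205, so the transcripts that end at position 62818695 were not measured. All 4 semaphorin members lie on the plus strand of chromosome 5: Sema3d at 12383385 to 12588948, Sema3a at 13125414 to 13602565, Sema3e at 14025276 to 14256689 and Sema3c at 17574281 to 17730268. Sema3e and Sema3c were counted on 100% of their exonic bases, Sema3d on 71.4% and Sema3a on 39.2%, for Sema3a outside the coding sequence.

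Per kilobase of countable length, Plxna1 had the highest level in every group, with 67.3 ± 2.36 CPM per kb for Crebl2 siRNA with rapamycin and 60.2 ± 3.63 CPM per kb for Luc siRNA with ethanol (SD, n = 3 each). Plxna4 had the lowest, with 0.732 ± 0.0468 and 0.184 ± 0.0422 CPM per kb in the same groups. Nrp1 and Sema3e held the next places. Nrp1 stood above Sema3e with Crebl2 siRNA, at 44.0 against 29.7 CPM per kb in rapamycin and 44.2 against 32.6 CPM per kb in ethanol, and no library of one reached the range of the other. With Luc siRNA the library ranges of the pair overlapped, at 39.6 CPM per kb for Nrp1 and 40.9 for Sema3e in rapamycin and 36.4 for Nrp1 and 40.1 for Sema3e in ethanol. Nrp2, Plxna3, Sema3c and Plxna2 followed in an order that varied between groups, at 15.3 to 30.5 CPM per kb. The ranges of Nrp2 and Plxna3 overlapped for Crebl2 siRNA with rapamycin, those of Sema3c with Plxna3 and of Plxna3 with Plxna2 for Crebl2 siRNA with ethanol, those of Plxna3 and Sema3c for Luc siRNA with rapamycin, and those of Sema3c and Nrp2 for Luc siRNA with ethanol, among neighbours in the order. Nrp2 with Sema3c for Luc siRNA with rapamycin and Sema3c with Plxna2 for Crebl2 siRNA with ethanol, which were not neighbours, also overlapped. Sema3a, at 4.62 to 5.26 CPM per kb, and Sema3d, at 2.07 to 4.03 CPM per kb, came before Plxna4 in every group, and their ranges overlapped for Luc siRNA with ethanol. The place of Plxna1 rests on the length used. With total exonic length it measured 24.0 CPM per kb for Crebl2 siRNA with rapamycin, below Nrp1 at 43.6 CPM per kb. The place of Nrp2 rests on the length too, since only 2333 of its 10380 exonic bases were countable. All of them lie in Nrp2-205, so its values describe the end of that transcript and not the whole gene.

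**Figure D1:**
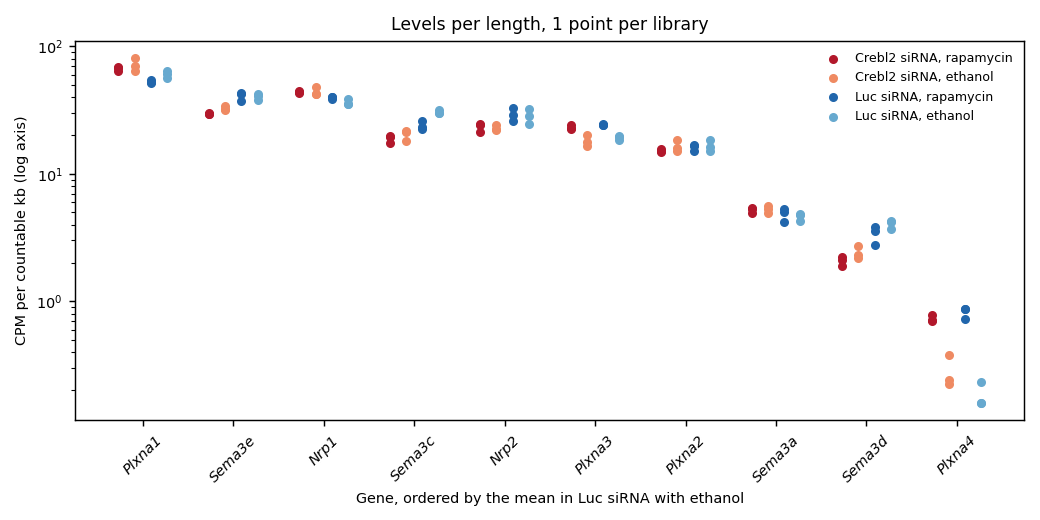
Level per kilobase of countable length (CPM per kb, log scale) of each member in the 4 groups, with points for libraries. Plxna1 was highest and Plxna4 lowest in each group, with Plxna4 at 0.732 CPM per kb for Crebl2 siRNA with rapamycin and 0.184 CPM per kb for Luc siRNA with ethanol.

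The first question was how the Crebl2 siRNA moved these genes. The ligands Sema3c, Sema3d and Sema3e and the co-receptor Nrp2 fell with Crebl2 siRNA in ethanol and again in rapamycin. Plxna1 and Nrp1 rose in both. Plxna2, Plxna3 and Sema3a were not called in either. Plxna4 is left out of the counts, since the libraries compared also entered its choice. The other 9 were taken by name, but with earlier results of these data known, which limits the counts. In ethanol 6 of the other 9 members were called, 2 up and 4 down, where 38.4% of all tested genes were called, 21.4% up and 17.0% down. In rapamycin 6 of 9 were called, 2 up and 4 down, where 33.1% of all tested genes were called, 16.3% up and 16.8% down. The median log2 fold change of the 9 was -0.08 in ethanol and -0.09 in rapamycin, beside 0.012 in ethanol and -0.013 in rapamycin for all tested genes. The 2 comparisons share no library. Calls are edgeR quasi-likelihood tests with p adjusted by Benjamini-Hochberg across the 13247 genes and a threshold of 0.05, and changes are log2 fold changes ± SE, Crebl2 siRNA over Luc siRNA.

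**Figure D2:**
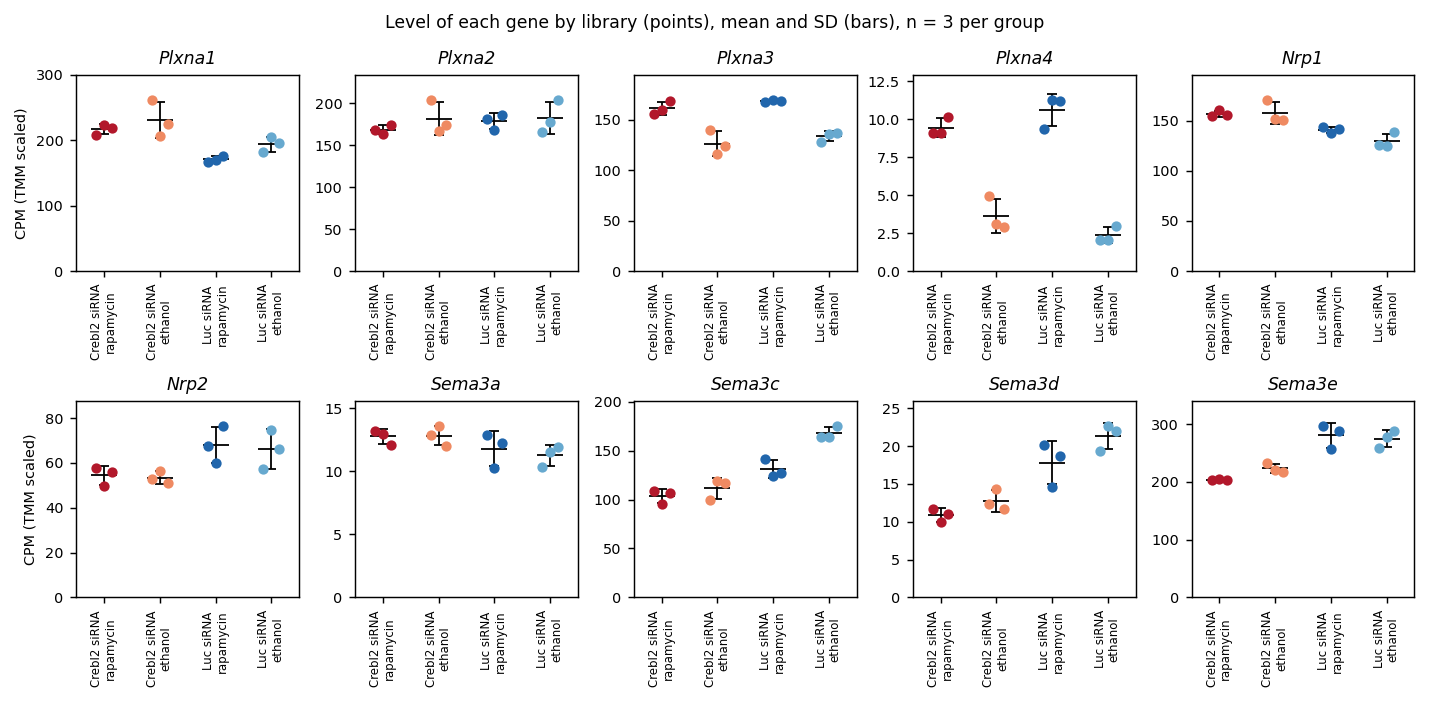
CPM (TMM scaled) of each member in every library, 3 points per group, with bars for the group mean and SD. Sema3c, Sema3d and Sema3e lay lower in both Crebl2 siRNA groups than in the Luc siRNA group with the same treatment, and Plxna4 lay between 9.06 and 11.2 CPM in rapamycin, against 2.04 to 4.92 CPM in ethanol.

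Sema3d, a ligand known for patterning of neural and vascular tissue, had the largest log2 fold changes among the semaphorin members. In rapamycin it measured 11.7, 9.95 and 11.1 CPM with Crebl2 siRNA, against 20.2, 14.6 and 18.7 CPM with Luc siRNA. In ethanol it measured 12.3, 14.3 and 11.6 CPM with Crebl2 siRNA, against 19.4, 22.6 and 21.9 CPM with Luc siRNA. All 6 Crebl2 siRNA libraries lay below the lowest Luc siRNA library, which was library 2 in rapamycin. Sema3d fell by 0.74 ± 0.11 on the log2 scale in ethanol (adjusted p = 0.000104) and fell by 0.70 ± 0.12 in rapamycin (adjusted p = 0.000254).

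Sema3c, which is required for development of the cardiac outflow tract and signals through either neuropilin, measured 108, 95.9 and 107 CPM with Crebl2 siRNA in rapamycin, against 142, 124.5 and 127.5 CPM with Luc siRNA in rapamycin. In ethanol it measured 99.2, 118.5 and 117 CPM with Crebl2 siRNA, against 164, 164 and 175 CPM with Luc siRNA. The siRNA groups did not overlap in either treatment, and the Luc siRNA libraries in ethanol were the highest of the 12. Sema3c fell by 0.59 ± 0.07 in ethanol (adjusted p = 1.05e-05) and fell by 0.34 ± 0.07 in rapamycin (adjusted p = 0.00166).

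Sema3e, the Plxnd1 ligand and the most abundant of the 4 ligands per length, measured 203, 205 and 203 CPM with Crebl2 siRNA in rapamycin, against 296, 256.5 and 289 CPM with Luc siRNA in rapamycin. In ethanol the values were 233, 220.0 and 218 CPM with Crebl2 siRNA, against 259, 278 and 288 CPM with Luc siRNA. Every Crebl2 siRNA library was again below every Luc siRNA library. Sema3e fell by 0.46 ± 0.06 in rapamycin (adjusted p = 1.45e-05) and fell by 0.30 ± 0.06 in ethanol (adjusted p = 0.000552).

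Sema3a, the remaining ligand, was not called in either treatment. It measured 13.2, 13.0 and 12.1 CPM with Crebl2 siRNA in rapamycin, against 12.9, 10.3 and 12.2 CPM with Luc siRNA in rapamycin. The ethanol libraries had 12.9, 13.6 and 12.0 CPM with Crebl2 siRNA, against 10.3, 11.6 and 11.9 CPM with Luc siRNA, and here the ranges did not overlap. The differences of 0.19 ± 0.09 in ethanol (adjusted p = 0.127) and 0.12 ± 0.09 in rapamycin (adjusted p = 0.372) did not pass the test. Summed per length, the 4 ligands came to 55.9 ± 1.20 CPM per kb with Crebl2 siRNA and rapamycin, against 73.0 ± 5.59 CPM per kb with Luc siRNA and rapamycin, and to 60.6 ± 1.18 CPM per kb with Crebl2 siRNA and ethanol, against 79.3 ± 3.67 CPM per kb with Luc siRNA and ethanol (SD, n = 3 each). Sema3a made up 9.36% of that sum with Crebl2 siRNA and rapamycin and 8.67% with Crebl2 siRNA and ethanol, against 6.61% with Luc siRNA and rapamycin and 5.82% with Luc siRNA and ethanol. With total exonic length these shares were 3.94% and 3.64% with Crebl2 siRNA in rapamycin and in ethanol, against 2.74% and 2.40% with Luc siRNA in rapamycin and in ethanol.

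Promoter sequence was available for 8 of the 10 members (all but Plxna1 and Plxna4) as RefSeq windows on GRCm38.p6, and 5 of the windows held no annotated exon in the 250 bases before the start. The windows of Sema3d and Sema3e are shown because both genes fell with Crebl2 siRNA in each treatment, and that of Plxna3 because it rose with rapamycin with each siRNA, as described below. These motifs were searched on both strands: the cAMP response element TGACGTCA, its half-site TGACG (which also lies within TGACGTCA), and the E-box CAGCTG that myogenic bHLH factors bind. The only match among the 8 windows was a half-site, read as CGTCA on the strand shown and given in capitals, that starts 84 bases before the RefSeq start of Sema3d. Across 32851 promoter windows of the same length, 17.8% held the half-site, 1.55% TGACGTCA and 13.0% CAGCTG. Each sequence runs 5′ to 3′ on the plus strand. The Sema3d window ends 219 bases before the start of the counted transcript, and those of Sema3e and Plxna3 end at it. Of the windows not shown, those of Nrp1, Nrp2 and Sema3a end 211, 385 and 2525 bases before it. Those of Plxna2 and Sema3c end past it and lie wholly in annotated exons. The lack of matches therefore describes these windows only.
Sema3d (chr5:12382916-12383165): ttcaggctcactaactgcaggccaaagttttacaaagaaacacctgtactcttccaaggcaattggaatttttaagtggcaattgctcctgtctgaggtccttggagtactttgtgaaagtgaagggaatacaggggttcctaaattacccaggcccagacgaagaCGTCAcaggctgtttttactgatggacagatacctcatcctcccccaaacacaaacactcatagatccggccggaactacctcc
Sema3e (chr5:14025026-14025275): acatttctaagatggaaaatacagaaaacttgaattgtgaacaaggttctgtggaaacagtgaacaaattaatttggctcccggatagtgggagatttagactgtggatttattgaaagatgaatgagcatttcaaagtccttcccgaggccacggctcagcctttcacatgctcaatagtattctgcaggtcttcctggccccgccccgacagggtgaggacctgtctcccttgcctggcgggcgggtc
Plxna3 (chrX:74328816-74329065): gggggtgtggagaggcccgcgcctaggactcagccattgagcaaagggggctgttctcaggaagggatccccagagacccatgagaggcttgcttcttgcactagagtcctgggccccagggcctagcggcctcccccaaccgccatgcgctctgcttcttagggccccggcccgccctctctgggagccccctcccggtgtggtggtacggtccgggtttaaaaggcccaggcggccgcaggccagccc

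The receptors and co-receptors moved in both directions with Crebl2 siRNA. Plxna1, a receptor for several class 3 semaphorins, measured 208.5, 223 and 219 CPM with Crebl2 siRNA in rapamycin, against 167, 170.3 and 176.5 CPM with Luc siRNA in rapamycin. With ethanol instead, the values were 261, 207 and 224.5 CPM with Crebl2 siRNA, against 182, 205 and 195 CPM with Luc siRNA. The groups did not overlap in either treatment, although in ethanol library 2 with Crebl2 siRNA lay close to library 2 with Luc siRNA. Plxna1 rose by 0.34 ± 0.07 in rapamycin (adjusted p = 0.00150) and by 0.25 ± 0.07 in ethanol (adjusted p = 0.0101). Without library 1 of Crebl2 siRNA in ethanol the ethanol value was 0.16 ± 0.06 and was no longer called.

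Nrp1, a co-receptor for Sema3a and for VEGF-A, measured 155, 160.3 and 156 CPM with Crebl2 siRNA in rapamycin, against 143, 138 and 142 CPM with Luc siRNA in rapamycin. Ethanol libraries gave 170.3, 152 and 150.3 CPM with Crebl2 siRNA, against 126, 125 and 138 CPM with Luc siRNA. All 6 Crebl2 siRNA libraries lay above all 6 Luc siRNA libraries. Nrp1 rose by 0.28 ± 0.05 in ethanol (adjusted p = 0.000651) and by 0.15 ± 0.05 in rapamycin (adjusted p = 0.0359). The rapamycin call ended without library 2 of either group in rapamycin, at 0.17 ± 0.06 both times.

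Nrp2, a co-receptor for Sema3f and VEGF-C, measured 57.9, 49.8 and 56.1 CPM with Crebl2 siRNA in rapamycin, against 67.5, 60.1 and 76.3 CPM with Luc siRNA in rapamycin. In ethanol the libraries had 52.6, 56.5 and 51.2 CPM with Crebl2 siRNA, against 57.2, 74.9 and 66.4 CPM with Luc siRNA. The groups did not overlap, but the Luc siRNA libraries were spread widely and their lowest came near the Crebl2 siRNA range. Nrp2 fell by 0.32 ± 0.10 in rapamycin (adjusted p = 0.0192) and fell by 0.31 ± 0.10 in ethanol (adjusted p = 0.0184), for the reads of the 1 measured transcript. The rapamycin call ended without library 1 or 3 of Luc siRNA or library 2 or 3 of Crebl2 siRNA (-0.30 to -0.20), and the ethanol call without library 2 of Luc siRNA or library 1 or 3 of Crebl2 siRNA (-0.30 to -0.21).

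Plxna2, a receptor that also binds the transmembrane ligand Sema6a, measured 168, 163 and 174 CPM with Crebl2 siRNA in rapamycin, against 181.5, 168 and 187 CPM with Luc siRNA in rapamycin. Without rapamycin its values were 204, 167 and 175 CPM with Crebl2 siRNA, against 166, 178 and 204 CPM with Luc siRNA. The groups overlapped in both treatments, with differences of -0.09 ± 0.08 in rapamycin (adjusted p = 0.439) and -0.01 ± 0.08 in ethanol (adjusted p = 0.970). Plxna3, a receptor for Sema3f together with Nrp2, differed by -0.07 ± 0.06 in rapamycin (adjusted p = 0.428) and -0.08 ± 0.06 in ethanol (adjusted p = 0.304) between the siRNAs. Without library 1 of Crebl2 siRNA in ethanol the ethanol value of Plxna3 was -0.16 ± 0.05 and was called.

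Plxna4, which together with Nrp1 passes Sema3a signals in sensory and sympathetic axons, was read from 84 to 446 counts per library. It measured 9.06, 9.11 and 10.1 CPM with Crebl2 siRNA in rapamycin, against 9.35, 11.2 and 11.2 CPM with Luc siRNA in rapamycin. In ethanol the values were 4.92, 3.09 and 2.90 CPM with Crebl2 siRNA, against 2.07, 2.04 and 3.00 CPM with Luc siRNA. Between the siRNAs the groups overlapped in both treatments, and library 1 of Crebl2 siRNA in ethanol stood above the other 5 ethanol libraries. The log2 difference, Crebl2 siRNA over Luc siRNA, was 0.63 ± 0.20 in ethanol and -0.17 ± 0.16 in rapamycin. The ethanol value was 0.35 ± 0.17 without library 1 of Crebl2 siRNA, and 0.54 and 0.53 without library 1 and without library 2 of Luc siRNA.

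The second question was how rapamycin moved these genes. Plxna4 was the member with the largest difference, and it was chosen for it. Of the other 9 members, Plxna3 rose with each siRNA and Sema3c fell with Luc siRNA. With Luc siRNA 2 of 9 were called, 1 up and 1 down, where 41.1% of all tested genes were called, 19.5% up and 21.6% down. With Crebl2 siRNA 1 of 9 was called, up, where 45.3% of all tested genes were called, 19.7% up and 25.6% down. The median log2 fold change of the 9 was -0.09 with Crebl2 siRNA and 0.03 with Luc siRNA, beside -0.012 with Crebl2 siRNA and 0.017 with Luc siRNA for all tested genes.

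The Plxna4 values above lay at 9.06 to 11.2 CPM in the 6 rapamycin libraries and at 2.04 to 4.92 CPM in the 6 ethanol libraries, with no overlap. The log2 difference, rapamycin over ethanol, was 1.37 ± 0.18 with Crebl2 siRNA, or 2.59-fold, and 2.17 ± 0.18 with Luc siRNA, or 4.49-fold. The difference between these was -0.80 ± 0.26, and -0.51 ± 0.21 without library 1 of Crebl2 siRNA in ethanol. Even in rapamycin Plxna4 was a small share of the A-type plexin level per length, at 0.688% ± 0.0336 with Crebl2 siRNA and 0.871% ± 0.0807 with Luc siRNA. In ethanol that share was 0.262% ± 0.0514 with Crebl2 siRNA and 0.191% ± 0.0393 with Luc siRNA (SD, n = 3 each). With total exonic length, which lowers Plxna1, the shares of Plxna4 were 1.16% in rapamycin and 0.461% in ethanol with Crebl2 siRNA, and 1.36% in rapamycin and 0.319% in ethanol with Luc siRNA. Summed per length, the 4 plexins came to 106.5 ± 3.09 CPM per kb with Crebl2 siRNA in rapamycin and 106.6 ± 12.2 CPM per kb with Crebl2 siRNA in ethanol. With Luc siRNA they came to 94.4 ± 2.11 CPM per kb in rapamycin and 96.2 ± 5.29 CPM per kb in ethanol. With total exonic length the sums were 63.2 in rapamycin and 60.5 in ethanol with Crebl2 siRNA. With Luc siRNA they were then 60.25 in rapamycin and 57.45 in ethanol, so the differences between groups depend on the length used. The differentiating muscle markers were lower in rapamycin with each siRNA, with a median log2 change of -1.40 with Crebl2 siRNA and -1.65 with Luc siRNA over the 4 tested, and their part in the plexin values was not tested.

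Plxna3 measured 155.5, 160.0 and 168 CPM in rapamycin with Crebl2 siRNA, against 139.8, 115.5 and 123.5 CPM in ethanol. With Luc siRNA it measured 168, 169 and 169 CPM in rapamycin, against 128, 136 and 137 CPM in ethanol. Every rapamycin library was above every ethanol library. Plxna3 rose by 0.35 ± 0.06 with Crebl2 siRNA (adjusted p = 0.000145) and by 0.34 ± 0.06 with Luc siRNA (adjusted p = 0.000261). Its share of the A-type plexin level was 21.8% ± 0.435 in rapamycin and 17.1% ± 0.273 in ethanol with Crebl2 siRNA, and 25.7% ± 0.557 in rapamycin and 20.0% ± 0.446 in ethanol with Luc siRNA (SD, n = 3 each). With total exonic length it was 36.7% in rapamycin and 30.1% in ethanol with Crebl2 siRNA, and 40.3% in rapamycin and 33.5% in ethanol with Luc siRNA.

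Sema3c fell with rapamycin by 0.35 ± 0.07 in Luc siRNA cells (adjusted p = 0.000755), where the groups given above did not overlap. In Crebl2 siRNA cells, the groups overlapped and the difference of -0.10 ± 0.07 did not pass the test (adjusted p = 0.250). Without library 1 of Crebl2 siRNA in ethanol it was -0.18 ± 0.07 and was called. Sema3d differed by -0.22 ± 0.12 with Crebl2 siRNA (adjusted p = 0.150) and by -0.26 ± 0.11 with Luc siRNA (adjusted p = 0.0765). Sema3e differed by -0.13 ± 0.06 with Crebl2 siRNA (adjusted p = 0.0652), where the libraries did not overlap, and by 0.03 ± 0.06 with Luc siRNA. Sema3a, Plxna2 and Nrp2 were not called with either siRNA, with differences from -0.11 to 0.07. Plxna1 differed by -0.09 ± 0.07 with Crebl2 siRNA and -0.18 ± 0.07 with Luc siRNA (adjusted p = 0.0511), and Nrp1 by -0.01 ± 0.05 with Crebl2 siRNA and 0.12 ± 0.05 with Luc siRNA (adjusted p = 0.0871). With Luc siRNA, Plxna1 was called with RLE scaling, by DESeq2, without a count filter, in a fit of only the compared groups and without library 1 in ethanol or library 3 in rapamycin (-0.23 for each library), Sema3d without a count filter (-0.30) and without library 1 in ethanol or library 1 in rapamycin (-0.32 and -0.39), and Nrp1 with upper quartile scaling, at a minimum count of 50 and without library 3 in ethanol (0.20, 0.13 and 0.17).

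**Figure D3:**
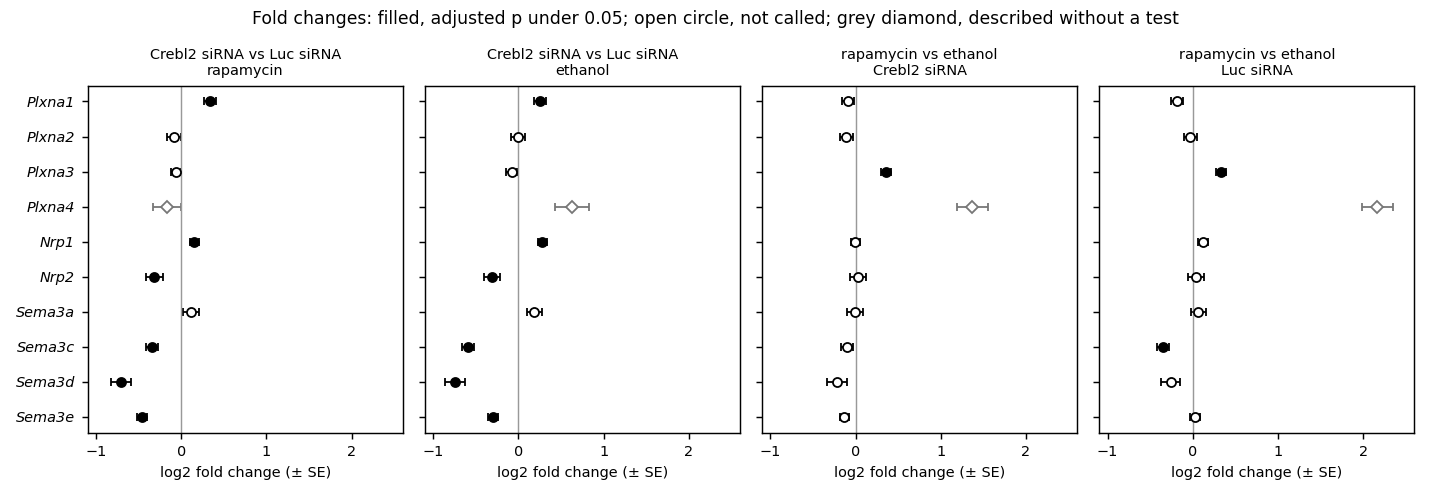
Log2 fold change (edgeR) of each member in the 4 comparisons, with bars for 1 SE on either side, filled points for adjusted p under 0.05, open points for members not called and diamonds for Plxna4, which is described without a test. Plxna4 stood at 1.37 and 2.17 in the rapamycin comparisons, and Sema3c, Sema3d and Sema3e lay below 0 in both Crebl2 siRNA comparisons.

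Whether rapamycin moved the members differently with the 2 siRNAs was tested with the interaction term, the rapamycin change with Crebl2 siRNA minus that with Luc siRNA. None of the 9 members other than Plxna4 was called by edgeR (0 of 9), where 1.20% of all tested genes were called, 0.611% up and 0.589% down. At an unadjusted p under 0.05 the count was 1, Sema3c at 0.25 ± 0.10 (adjusted p = 0.264), and DESeq2 called 0. Sema3e followed at -0.16 ± 0.08 (adjusted p = 0.374).

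Genes whose pattern was most like that of Plxna4 were sought by the Pearson correlation of log2 CPM over the 12 libraries, among 6983 other protein-coding genes. The highest were Lrig3 (r = 0.988), Atrn (r = 0.986), Ece1 (r = 0.983), Vdr (r = 0.983) and Ap2a2 (r = 0.980). The 12 libraries share their 4 groups, so the correlations mostly set group means side by side and carry no test. Vdr, the vitamin D receptor, averaged 364 CPM in rapamycin and 217 CPM in ethanol with Crebl2 siRNA, and 354 CPM in rapamycin and 194 CPM in ethanol with Luc siRNA. Lrig3, a leucine-rich repeat membrane protein, averaged 98.6 CPM in rapamycin and 77.5 CPM in ethanol with Crebl2 siRNA, and 102 CPM in rapamycin and 72.4 CPM in ethanol with Luc siRNA. Their changes were smaller than that of Plxna4, which was chosen for its rise, and the correlation does not take size into account.

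Other genes of the semaphorin and plexin families were measured from lists. Of 5 other plexins 4 were tested. Plxnb3 averaged 0.569 CPM with Crebl2 siRNA against 1.95 CPM with Luc siRNA in rapamycin, and 0.678 CPM with Crebl2 siRNA against 2.94 CPM with Luc siRNA in ethanol. It fell with Crebl2 siRNA, with log2 fold changes of -1.78 ± 0.23 in rapamycin and -2.10 ± 0.21 in ethanol (adjusted p = 2.27e-05 and 1.54e-06). Plxnd1, the receptor of Sema3e, fell with Crebl2 siRNA as its ligand did, at -0.24 ± 0.06 in rapamycin (adjusted p = 0.00878) and -0.27 ± 0.06 in ethanol (adjusted p = 0.00409). Plxnb1, a receptor of Sema4d, rose with rapamycin by 0.42 ± 0.07 with Crebl2 siRNA and by 0.39 ± 0.07 with Luc siRNA (adjusted p = 7.72e-05 and 0.000199). Of the 3 other class 3 semaphorins, Sema3b fell with Crebl2 siRNA, at -0.40 ± 0.13 in rapamycin and -0.80 ± 0.13 in ethanol (adjusted p = 0.0279 and 0.000187). Of the exonic bases, 15.7% were countable for Sema3b and 34.3% for Sema3f, so the values of both describe those parts only. Sema3f rose with rapamycin by 0.62 ± 0.10 with Crebl2 siRNA and by 0.47 ± 0.10 with Luc siRNA (adjusted p = 0.000119 and 0.00165), and Sema3g fell, at -0.64 ± 0.21 with Crebl2 siRNA and -1.34 ± 0.23 with Luc siRNA (adjusted p = 0.0204 and 0.000198). Levels of Sema3g were low. With Crebl2 siRNA it averaged 1.20 CPM in rapamycin and 1.89 CPM in ethanol, with overlapping ranges. With Luc siRNA it averaged 0.688 CPM in rapamycin and 1.75 CPM in ethanol.

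Of 13 membrane semaphorins only 5 were tested. The untested ones had between 0.0% (Sema6c) and 25.1% (Sema4d) of their exonic bases countable. Their low counts therefore do not show that these genes were silent. With Crebl2 siRNA 2 rose and 1 fell in each treatment, where 33.1% of all tested genes were called in rapamycin and 38.4% in ethanol. With rapamycin 3 fell in Crebl2 siRNA cells and 4 in Luc siRNA cells, where 25.6% and 21.6% of all tested genes fell. Sema7a, a membrane-anchored ligand, averaged 137.5 ± 8.81 CPM with Crebl2 siRNA in rapamycin against 46.2 ± 1.82 CPM with Luc siRNA in rapamycin, and 165 ± 10.0 CPM with Crebl2 siRNA in ethanol against 59.8 ± 0.571 CPM with Luc siRNA in ethanol (SD, n = 3 each). It rose by 1.57 ± 0.06 in rapamycin and by 1.46 ± 0.06 in ethanol (adjusted p = 6.30e-11 and 1.52e-10). Of the secreted ligands, Sema3b, Sema3c, Sema3d and Sema3e fell with Crebl2 siRNA in both treatments, Sema3b on its countable 15.7%. Sema3g rose with Crebl2 siRNA in rapamycin, by 0.81 ± 0.24 (adjusted p = 0.0170), and was not called in ethanol. That rise was between low levels, 1.20 CPM with Crebl2 siRNA against 0.688 CPM with Luc siRNA. Sema3a and Sema3f were not called in either. Sema5a fell with Crebl2 siRNA, at -0.88 ± 0.06 in rapamycin and -0.54 ± 0.06 in ethanol (adjusted p = 3.21e-08 and 3.77e-06), and Sema4f rose by 0.39 ± 0.10 in rapamycin and by 0.72 ± 0.09 in ethanol (adjusted p = 0.00579 and 1.83e-05).

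**Figure D4:**
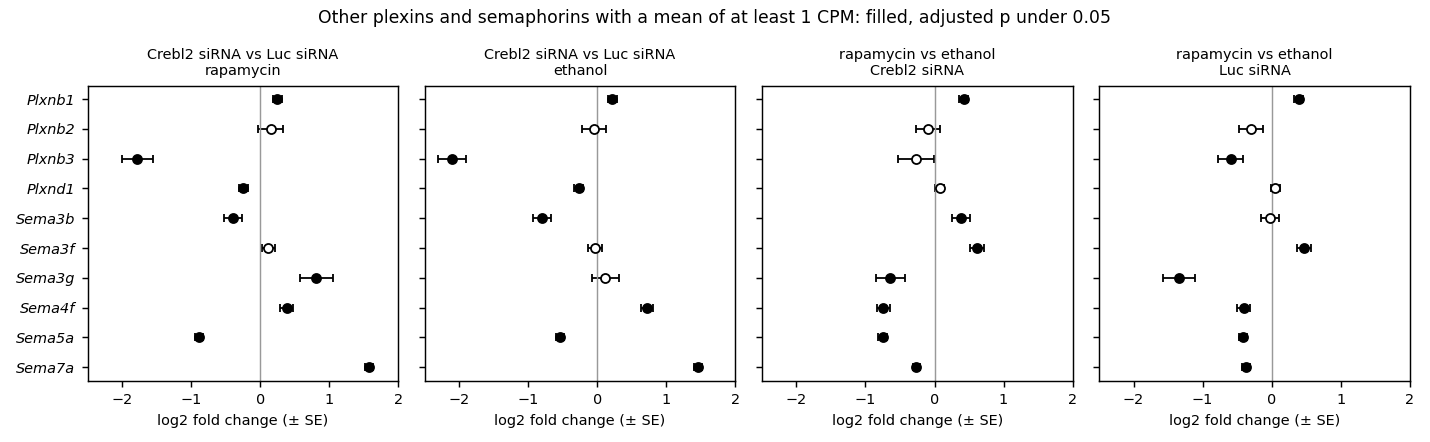
Log2 fold change of the other tested plexins and semaphorins with a mean of at least 1 CPM in the 4 comparisons, with filled points for adjusted p under 0.05 and bars for 1 SE on either side. Sema7a stood at 1.57 and 1.46 and Plxnb3 at -1.78 and -2.10 in the Crebl2 siRNA comparisons in rapamycin and in ethanol.

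Of 31 genes that act below plexins 25 were tested. The untested ones had between 0.1% (Mical1) and 46.2% (Rac1) of their exonic bases countable. With Crebl2 siRNA 4 rose and 2 fell in rapamycin and 6 rose and 5 fell in ethanol, where 33.1% and 38.4% of all tested genes were called. The largest rise named by the rule was that of Rnd1, a GTPase that binds plexins, by 1.32 ± 0.08 in rapamycin and by 1.31 ± 0.08 in ethanol (adjusted p = 1.07e-08 and 6.09e-09). Mical2, of the family of actin-oxidising enzymes, rose by 0.32 ± 0.06 in rapamycin and by 0.48 ± 0.06 in ethanol (adjusted p = 0.000480 and 9.59e-06). With rapamycin 7 rose and 8 fell in Crebl2 siRNA cells and 6 rose and 7 fell in Luc siRNA cells, where 45.3% and 41.1% of all tested genes were called. Dpysl3, a CRMP family protein of the cytoskeleton, rose by 0.56 ± 0.04 with Crebl2 siRNA and by 0.80 ± 0.04 with Luc siRNA (adjusted p = 4.90e-08 and 1.39e-09). GTPases of the Ras and Rap families, on which plexins act, went both ways. Rras rose by 0.59 ± 0.06 with Crebl2 siRNA and by 0.39 ± 0.06 with Luc siRNA. Rras2 fell, at -0.46 ± 0.06 with Crebl2 siRNA and -0.33 ± 0.06 with Luc siRNA, and Rap1a fell, at -0.30 ± 0.05 with Crebl2 siRNA and -0.38 ± 0.05 with Luc siRNA. Rap1b, named after its values were seen, also fell, at -0.32 ± 0.06 with Crebl2 siRNA and -0.21 ± 0.06 with Luc siRNA (adjusted p from 6.75e-07 to 0.00889 over these genes). The 25 genes had median log2 changes between -0.03 and 0.02 in the 4 comparisons, beside -0.013 to 0.017 for all tested genes.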

How the data were processed

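Stranded total RNA libraries were sequenced from 12 samples in 4 groups of 3, grouped by the siRNA and the treatment in the labels. The authors deposited whole-number read counts for 58611 Ensembl transcripts, with no normalization in the files. Trim Galore, TopHat and HTSeq, and the builds mm9 and GRCm38, are named without versions in the submitters' processing notes. The annotation release and the strand setting are not given in the sources used here.

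Transcripts were matched by identifier to GENCODE M21 on GRCm38 (58264, or 99.41%), and the 347 without a match held 0.038% of the counts. The tests had been planned for counts per gene, so the transcripts listed for a gene were added up. Of 8480 protein-coding transcripts that share every exonic base with another listed transcript, 99.3% were never counted, against 32.0% of the others, which is why lengths are given over countable bases. Where reads of a gene and an antisense neighbour overlap they cannot be told apart without the strand setting.

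Genes with enough counts by the edgeR filter (minimum count 10 by group) had their libraries scaled by TMM and entered the quasi-likelihood test of edgeR 4.0.16 (R 4.3.3), with a mean for each group and all 12 libraries in 1 fit. The adjusted p is Benjamini-Hochberg over 13247 genes. The SE was derived from each log2 fold change and its F statistic. The common biological variation was 6.9%. The fit was also run on simulated counts in which a far smaller share of genes changed than was called with siRNA or rapamycin. That run therefore did not test the scaling under changes as wide as these. Replicates of a group differed beyond counting noise in all 12 pairs (chi-square per degree of freedom 5.90 to 15.7).

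The members and lists were chosen with earlier results of these data known. All 10 members are named. Of each list, the genes named have a mean of at least 1 CPM and are among the 3 smallest p of a comparison. The genes most like Plxna4 have a mean of at least 5 CPM. Alternatives were RLE and upper quartile scaling, DESeq2 1.42.0, a replicate block, a count minimum of 50 or none, fits restricted to the compared groups, leaving out each library, total exonic length and library totals. Promoter windows came from RefSeq.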

Additional observations from a re-analysis of the deposited data

How the results depend on the processing

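Counts of called members leave out Plxna4, which is described without a test (6 of 9 for Crebl2 siRNA in ethanol and in rapamycin in the reported fit). For rapamycin with Luc siRNA 3 of 9 were called, against 2, under RLE scaling, DESeq2 and a fit of only the compared groups, which added Plxna1, and under upper quartile scaling and a minimum count of 50, which added Nrp1. The other comparisons gave the reported counts under these settings (the interaction was not refitted with only the compared groups). Without a count filter the count for rapamycin with Luc siRNA was 4 of 9, with Plxna1 and Sema3d added, against 2, and that for the interaction was 1, Sema3c at 0.31, against 0. Leaving out 1 library at a time gave 1 to 2 members for rapamycin with Crebl2 siRNA and 2 to 4 with Luc siRNA (4 without library 1 of Luc siRNA in ethanol). It gave 4 to 6 for Crebl2 siRNA in rapamycin and 0 for the interaction. For Crebl2 siRNA in ethanol, Nrp2 and Plxna1 lost calls and Plxna3 gained a call, as given above. Over all settings and members other than Plxna4, 15 log2 fold changes gained the call and none changed direction while called. Those that lost the call were of Plxna1, Nrp1 and Nrp2 between the siRNAs. Replicate numbers did not pair the libraries: of 18 pairs with the same number, 2 correlated above 0.1 in their deviations (-0.292 to 0.124). Pairs with different numbers ran from -0.315 to 0.374, the highest for library 2 in rapamycin and library 1 in ethanol with Luc siRNA. A structure shared under other numbers was not tested. With a replicate block 1 and 2 members were called for rapamycin with Crebl2 and with Luc siRNA, and 0 for the interaction. For Crebl2 siRNA 5 were called in rapamycin, where Nrp1 lost the call (0.16), and the reported count in ethanol.

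Over all genes, upper quartile scaling moved the share of calls that rose to 60.2% from 43.6% for rapamycin with Crebl2 siRNA and to 61.2% from 47.4% with Luc siRNA. For the interaction it was 50.9%, with 64.5% under RLE, 70.4% under upper quartile and 74.7% without a filter, and the genes called were 159, against 297 by DESeq2, 415 without a filter and 91 with the block. With total exonic length, 37 to 40 of 45 pairs of members kept their order of levels. Depth limits Plxna4 most, at 84 counts in its lowest library.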

Other observations

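Neuropilins also bind factors of the VEGF family, and 8 of 13 co-receptors and other neuropilin ligands were tested. Vegfa was not tested and had 0.0% of its exonic bases countable, so its level was not measured. Vegfc, a ligand of Nrp2 and Flt4, averaged 7.90 ± 0.379 CPM with Crebl2 siRNA against 4.98 ± 0.208 CPM with Luc siRNA in rapamycin, and 8.21 ± 0.433 CPM with Crebl2 siRNA against 4.39 ± 0.217 CPM with Luc siRNA in ethanol (SD, n = 3 each). It rose by 0.67 ± 0.09 in rapamycin and by 0.90 ± 0.09 in ethanol on the log2 scale (edgeR adjusted p = 4.14e-05 and 1.76e-06). Vegfd fell with Crebl2 siRNA, at -0.57 ± 0.05 in rapamycin and -0.35 ± 0.05 in ethanol (adjusted p = 7.94e-07 and 5.39e-05), and with rapamycin, at -0.61 ± 0.05 in Crebl2 siRNA cells and -0.40 ± 0.05 in Luc siRNA cells (adjusted p = 1.16e-07 and 1.17e-05). Met, the receptor of hepatocyte growth factor, rose with Crebl2 siRNA by 0.31 ± 0.07 in rapamycin and by 0.42 ± 0.06 in ethanol, and fell with rapamycin, at -0.43 ± 0.06 in Crebl2 siRNA cells and -0.32 ± 0.07 in Luc siRNA cells. Met was counted on only 31.5% of its exonic bases. In all, 3 of the 8 rose and 1 fell with Crebl2 siRNA in rapamycin, and 4 rose and 1 fell in ethanol, where 33.1% and 38.4% of all tested genes were called. Of the 4 proprotein convertases 2 were tested, and Pcsk7, which can cleave precursor proteins, fell with rapamycin in Crebl2 siRNA cells, at -0.27 ± 0.05 (adjusted p = 0.000589) and differed by -0.14 ± 0.05 in Luc siRNA cells (adjusted p = 0.0528).

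The 4 semaphorin members lie within 12383385 to 17730268 of chromosome 5 (GRCm38), together with 17 other protein-coding genes. Of those 17, only 4 were tested. With Crebl2 siRNA 1 of the 4 rose and 0 fell in rapamycin, where 16.3% of all tested genes rose and 16.8% fell. In ethanol 1 rose and 0 fell, where 21.4% of all tested genes rose and 17.0% fell. The median log2 fold change of the 4 was 0.47 in rapamycin and 0.25 in ethanol. Whether the shared region has a part in the fall of Sema3c, Sema3d and Sema3e was not tested.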
